A study of Mus musculus with 7 samples.

Results

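Endosomal nucleic acid Toll-like receptors are the germline sensors that read RNA and DNA inside endosomes and lysosomes. Messenger RNA of 7 of their genes was followed among the 16476 genes of the deposited table, chosen by symbol: the receptors Tlr3, Tlr7, Tlr8, Tlr9 and Tlr13, and the chaperones Unc93b1 and Cnpy3. All 7 were found in the table and all 7 passed the minimum for testing. They were proposed with the knockout values of these same libraries in view, so the comparison of genotypes is given for them as a description, with no p-value.

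The knockout group held 3 libraries from C57BL/6 mice of genotype Netrin1loxp/loxp LysM Cre, in which loxP sites flank part of Ntn1, the netrin-1 gene, and Cre is made from the lysozyme M locus. The control group held 4 libraries from C57BL/6 LysM Cre mice, which carry the Cre alone. Both groups received lipopolysaccharide (LPS), a bacterial cell wall component, into the trachea, and airway cells were washed out 3 days later by bronchoalveolar lavage and depleted of neutrophils with antibodies. Lysozyme M is active in macrophages and neutrophils, so lymphocytes and dendritic cells in the lavage are largely outside the reach of this Cre. Nothing in the labels ties a library to a single animal, so p-values reflect only library-to-library spread, which could be technical.

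These receptors are made in the endoplasmic reticulum, where gp96 with its partner Cnpy3 folds most of them and Unc93b1 escorts them to endosomes. There, cathepsins and other proteases cut the receptor ectodomain before it can signal. In mice Tlr3 binds double-stranded RNA, Tlr7 single-stranded RNA, Tlr9 unmethylated CpG DNA and Tlr13 bacterial ribosomal RNA. Mouse Tlr8 lies beside Tlr7 and responds weakly to the ligands of human TLR8. The dose of Tlr7 matters in this species: in mice carrying Yaa, the Y-linked autoimmune accelerator, a stretch of the X chromosome end that includes Tlr7 has been copied to the Y chromosome, and the added Tlr7 promotes lupus-like disease.

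The recovered reads totalled between 9903284 and 13353733 per library. Ntn1 itself was nearly undetected, with 1, 0 and 1 reads in knockouts and 1, 4, 9 and 3 in controls, so the deletion cannot be read from these counts. Lyz2, the lysozyme M gene, stood between 909.7 and 1052 normalized counts in knockouts and at 76927, 770.1, 721 and 118781 in controls 1 to 4, so controls 1 and 4 stand apart from the other two. Knockout replicate 1 stands apart in its neutrophil transcripts: 10 neutrophil markers summed to 63396 normalized counts there, against 21760.3 and 22172 in knockouts 2 and 3 and 14285 to 15167 in controls. The Y-linked transcripts Ddx3y and Kdm5d, looked at after the values were seen, were present in all 7 libraries, Ddx3y at 1420 to 1571 in knockouts and 1382 to 1655 in controls.

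RefSeq promoter windows (GRCm38.p6) matched 5 of the 7 members, all but Tlr7 and Unc93b1. The 250 bases before the RefSeq start site are shown for 4 receptors, because Tlr8 and Tlr3 were lower in every knockout library and Tlr9 and Tlr13 split the knockout libraries. RefSeq and GENCODE M21, from which the gene positions here are taken, give the same start for Tlr8 and Tlr9. The RefSeq start of Tlr3 lies 700 bases inside the GENCODE gene, so its window is wholly within that gene, and the RefSeq start of Tlr13 lies 71 bases inside, so the last 71 bases of its window are within the gene. They are written 5′ to 3′ on the strand of the gene, and capitals mark every match to the motifs searched.
Tlr8, chrX:167264330-167264579, minus strand: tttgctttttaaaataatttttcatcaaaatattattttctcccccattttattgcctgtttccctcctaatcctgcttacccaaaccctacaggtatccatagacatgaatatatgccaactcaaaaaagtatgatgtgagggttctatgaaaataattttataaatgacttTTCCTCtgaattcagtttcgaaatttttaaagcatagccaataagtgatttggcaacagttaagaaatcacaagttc
Tlr3, chr8:45410381-45410630, minus strand: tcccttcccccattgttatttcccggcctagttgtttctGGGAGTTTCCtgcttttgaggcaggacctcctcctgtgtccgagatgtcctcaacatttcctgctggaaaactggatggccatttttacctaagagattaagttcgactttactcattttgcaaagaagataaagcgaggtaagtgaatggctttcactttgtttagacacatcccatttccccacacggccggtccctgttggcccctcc
Tlr9, chr9:106222348-106222597, plus strand: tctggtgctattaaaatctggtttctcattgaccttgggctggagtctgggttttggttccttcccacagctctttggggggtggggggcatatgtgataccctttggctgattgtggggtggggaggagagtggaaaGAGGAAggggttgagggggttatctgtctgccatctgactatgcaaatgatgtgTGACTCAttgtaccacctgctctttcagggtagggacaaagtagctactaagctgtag
Tlr13, chrX:106143025-106143274, plus strand: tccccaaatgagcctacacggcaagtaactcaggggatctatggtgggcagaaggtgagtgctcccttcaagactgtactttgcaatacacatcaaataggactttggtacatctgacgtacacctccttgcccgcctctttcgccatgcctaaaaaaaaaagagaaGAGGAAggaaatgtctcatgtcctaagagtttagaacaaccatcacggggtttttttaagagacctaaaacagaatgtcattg

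Both strands were searched for GAGGAA, a core bound by PU.1, a myeloid transcription factor, for TGANTCA, bound by AP-1, for the interferon-stimulated response element (ISRE), bound by interferon regulatory factors, and for the NF-kB motif. GAGGAA occurred once in Tlr8, reading TTCCTC on the printed strand, once in Tlr9 and once in Tlr13, where 23.3% of all 32851 windows hold it. TGANTCA occurred once in Tlr9, as TGACTCA, against 6.75% of all windows, and the NF-kB motif once in Tlr3, against 7.25%. No window among these 4 held the ISRE, which 2.98% of all windows hold. No 2 matches overlap. The GC content was 31.2% in Tlr8, 48.0% in Tlr3, 50.4% in Tlr9 and 44.4% in Tlr13. These are matches of letters and do not show binding.

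Tlr7 and Tlr8 were lower in every knockout library than in any control library, and Tlr3 was lower by a smaller amount. Tlr7 held 2342, 1818 and 2052 normalized counts in knockouts 1 to 3, against 6064, 5789.8, 7289.6 and 6045 in controls 1 to 4. A normalized count is a read count divided by a size factor for the library. The knockout mean of Tlr7 was 2071 ± 263 (SD, n = 3) and the control mean 6297 ± 673 (SD, n = 4), a ratio of 0.329. The log2 fold change on log2(normalized count + 1) was -1.61 (SE 0.11).

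Tlr8 held 832, 896 and 907 normalized counts in knockouts, against 2153, 2034, 2884 and 2460.3 in controls. The knockout libraries lay close together and the control libraries were spread more widely, with control 3 the highest for both Tlr7 and Tlr8. The means were 879 ± 40.2 (SD, n = 3) in knockouts and 2383 ± 379 (SD, n = 4) in controls, a ratio of 0.369 and a log2 fold change of -1.43 (SE 0.12).

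Tlr3, the double-stranded RNA receptor, was the scarcest member, with 126 to 135 reads per library in knockouts and 135 to 187 in controls. Its normalized counts were 136, 129.8 and 114 in knockouts, against 184, 170.3, 165 and 169 in controls, with no overlap. The mean was 126 ± 11.4 (SD, n = 3) in knockouts and 172 ± 8.01 (SD, n = 4) in controls, a log2 fold change of -0.44 (SE 0.10).

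By limma's moderated test over all 12963 genes with a mean of at least 10 normalized counts, 3 of the 7 members were called lower at an adjusted p under 0.05 and none higher. These were Tlr7, Tlr8 and Tlr3, the same 3 whose groups did not overlap. Over all genes tested 11.3% were called lower and 10.4% higher, and 16.3% had every knockout library below every control library. The members were picked with this contrast known, so the count describes them and nothing is read from it. Tlr7 and Tlr8 were called under every alternative run, and these runs reuse the same libraries. Tlr3 was not called without knockout 2, without knockout 3, without controls 1 and 4, without controls 2 and 3, or with either replicate number as a block. In the authors' deposited table the log2 fold changes were -1.49 for Tlr7, -1.32 for Tlr8 and -0.40 for Tlr3, also with knockouts over controls.

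**Figure D1:**
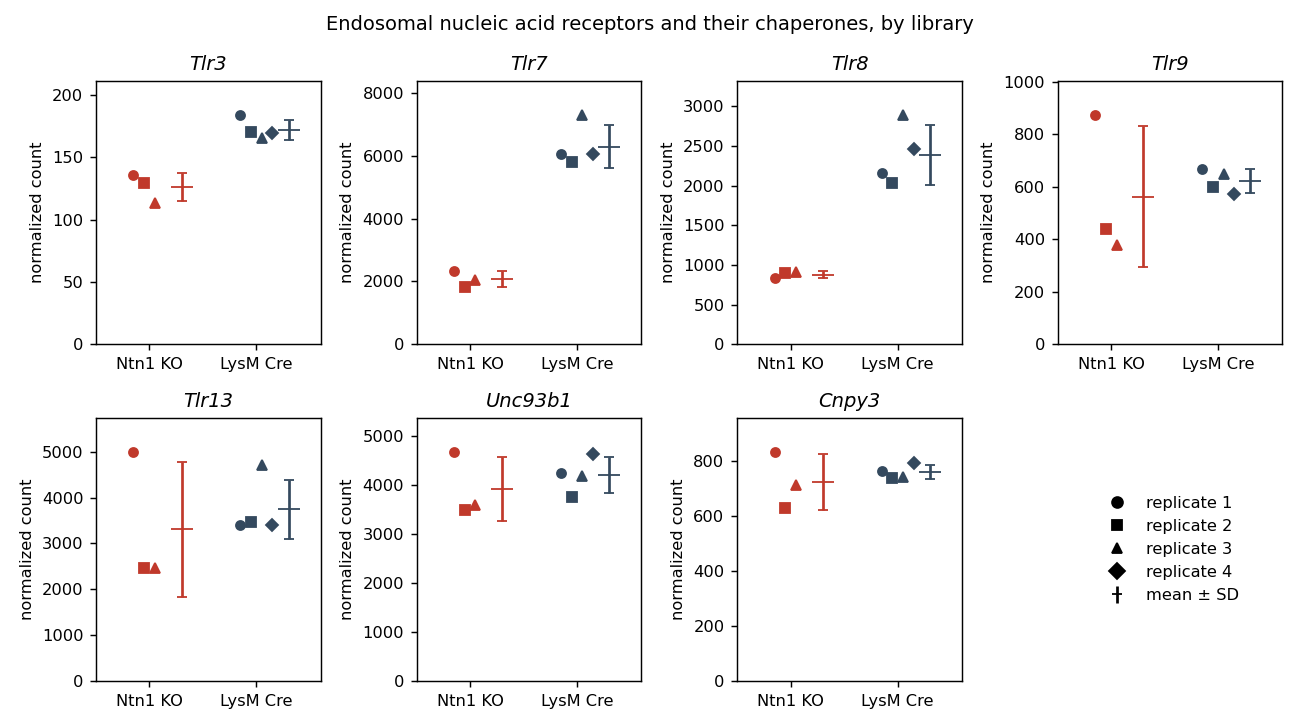
Normalized counts (linear axes from 0) of the 5 receptors and both chaperones in each library, Ntn1 knockouts in red and LysM Cre controls in dark blue; symbols give the replicate number and bars the mean ± SD. Tlr7, Tlr8 and Tlr3 do not overlap between groups, and in the other 4 genes knockout replicate 1 is the highest of the knockouts.

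The other 4 members split the knockout group instead of separating it from the controls. Tlr9, the CpG DNA receptor, held 872, 438 and 377 normalized counts in knockouts 1 to 3, against 668, 599.8, 648 and 571 in controls. Knockout 1 was above all 4 controls, and knockouts 2 and 3 were below all 4. The means, 562 ± 269.9 (SD, n = 3) in knockouts and 622 ± 44.5 (SD, n = 4) in controls, gave a log2 fold change of -0.24 (SE 0.25).

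Tlr13, the receptor for bacterial ribosomal RNA, held 4995, 2459 and 2461 normalized counts in knockouts, against 3403, 3469.8, 4704 and 3398 in controls. The same order held, with knockout 1 above every control and the other knockouts below every control. Control 3 stood apart from the other controls. The means were 3305 ± 1464 (SD, n = 3) in knockouts and 3744 ± 641 (SD, n = 4) in controls, a log2 fold change of -0.25 (SE 0.24). The ratio of Tlr13 to Tlr9, both as levels per kilobase, was 4.63, 4.53 and 5.28 in knockouts and 4.12, 4.67, 5.87 and 4.81 in controls, with control 3 the highest.

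Unc93b1, which carries the receptors to endosomes, held 4676, 3488 and 3587 normalized counts in knockouts, against 4246, 3749.6, 4176 and 4643 in controls (log2 fold change -0.11, SE 0.12). Cnpy3, the gp96 partner, held 832, 629 and 713 in knockouts, against 765, 737, 743 and 792 in controls (log2 fold change -0.08, SE 0.10). In both, knockout 1 was above all controls and knockouts 2 and 3 were below all controls. None of these 4 members passed the test over all libraries.

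Without knockout 1 the log2 fold changes were -0.61 for Tlr9, -0.59 for Tlr13, -0.24 for Unc93b1 and -0.18 for Cnpy3. Tlr9 and Tlr13 then passed the threshold, which made 5 members called lower, where 9.66% of all genes were called lower. Without knockout 2, and likewise without knockout 3, the members called lower were 2, Tlr7 and Tlr8, where 6.32% and 10% of all genes were. The log2 fold changes of Tlr7 and Tlr8 without knockout 1 were -1.70 and -1.39. The neutrophil markers given above were highest in the same knockout library in which Tlr9, Tlr13, Unc93b1 and Cnpy3 were highest, and their part in these values was not tested. Of those 10 markers 6 rose and none fell by limma's test, Hdc, the histamine-making enzyme (log2 fold change 1.20, SE 0.23, adjusted p = 0.00906), and Stfa2l1, a stefin (log2 fold change 1.96, SE 0.42, adjusted p = 0.0127), among them. Over all genes tested 10.4% rose. Without control 2, and likewise without control 4, the neutrophil markers that rose were 3. Without controls 1 and 4 they were 1, and without controls 2 and 3 they were 0.

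**Figure D2:**
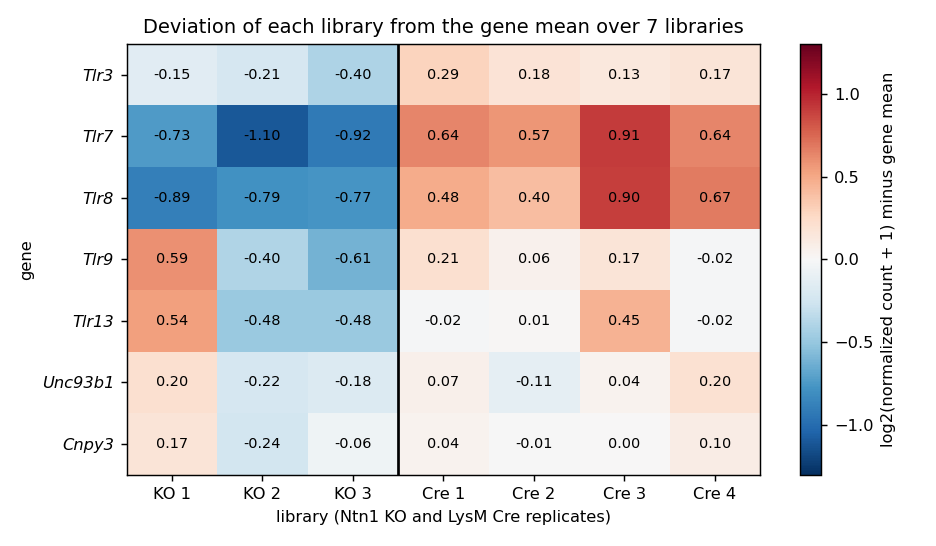
Each cell gives log2(normalized count + 1) minus the gene's mean over all 7 libraries, for knockouts 1 to 3 (left of the line) and controls 1 to 4 (right). Tlr7, Tlr8 and Tlr3 are below their mean in all 3 knockouts, while Tlr9, Tlr13, Unc93b1 and Cnpy3 are above it in knockout 1 and below it in knockouts 2 and 3.

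The profiles over the 7 libraries were compared by distance. After each gene's mean was subtracted, Unc93b1 and Cnpy3 differed by 0.06 log2 units per library on average, Tlr9 and Tlr13 by 0.12 and Tlr7 and Tlr8 by 0.14. Tlr7 and Tlr13, both X-linked RNA receptors, differed by 0.66. Among all other tested genes, the profile nearest to Tlr7 was that of Stard9, a kinesin gene, at a mean difference of 0.10, followed by Cd93, a phagocyte surface receptor, also at 0.10, and Arhgap6, a GTPase-activating protein, at 0.14. Nearest to Tlr8 were Nav1 (0.10), Stard9 (0.12) and Cd93 (0.13). Stard9 averaged 411 normalized counts in knockouts and 1215 in controls (log2 fold change -1.56, SE 0.08), and Cd93 averaged 648 in knockouts and 1802 in controls (log2 fold change -1.46, SE 0.14). Both lie on chromosome 2.

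Nearest to Tlr3 was Dnase2a (0.04), the lysosomal DNase that degrades DNA, followed by Emp3 and Klhl24 (both 0.04). Nearest to Tlr9 were Usp2 (0.07), S100a6 (0.10) and Cd24a (0.11), and nearest to Tlr13 were Il6ra (0.07), S100a6 (0.08) and Rassf2 (0.09). For Unc93b1 they were Cmtm7, Sesn2 and Sirpb1a, and for Cnpy3 Mtmr6, Ggh and Ppp1r12c, all within 0.05. These distances describe 7 libraries that fall into groups, and carry no test.

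Levels were compared between receptors as normalized counts per kilobase of merged exons. In knockouts Tlr13 stood highest at 768 ± 340.1 per kilobase (SD, n = 3), then Tlr7 at 507 ± 64.3, Tlr8 at 245 ± 11.2, Tlr9 at 162 ± 77.6 and Tlr3 at 24.3 ± 2.19. In controls Tlr7 stood highest at 1543 ± 165 per kilobase (SD, n = 4), then Tlr13 at 869.8 ± 149, Tlr8 at 665 ± 106, Tlr9 at 179 ± 12.8 and Tlr3 at 33.1 ± 1.54. In knockouts the libraries of Tlr13 and Tlr7 overlapped, as did those of Tlr8 and Tlr9. In controls those of Tlr13 and Tlr8 overlapped, and the other neighbours in the order did not. With the length of the longest transcript the order was the same in both groups, though Tlr13 and Tlr7 then no longer overlapped in knockouts.

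Summed over the 5 receptors, the level per kilobase was 2243, 1418 and 1458 in knockouts and 2997 to 3901 in controls. Tlr7 made up 25.6%, 31.4% and 34.5% of that sum in knockouts, against 45.8% to 47.9% in controls. Tlr13 made up 51.7%, 40.3% and 39.2% in knockouts, against 25.5%, 26.9%, 28.02% and 25.04% in controls. The share of Tlr9 was 7.43% to 11.2% in knockouts and 4.77% to 6.19% in controls. Tlr7 exceeded Tlr13 per kilobase in all 4 controls, by 1.63 to 1.88 times, and in no knockout, where the ratio was 0.494, 0.780 and 0.879. These shares restate the fall of Tlr7 and Tlr8, and a larger share shows unequal change, not a higher level.

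**Figure D3:**
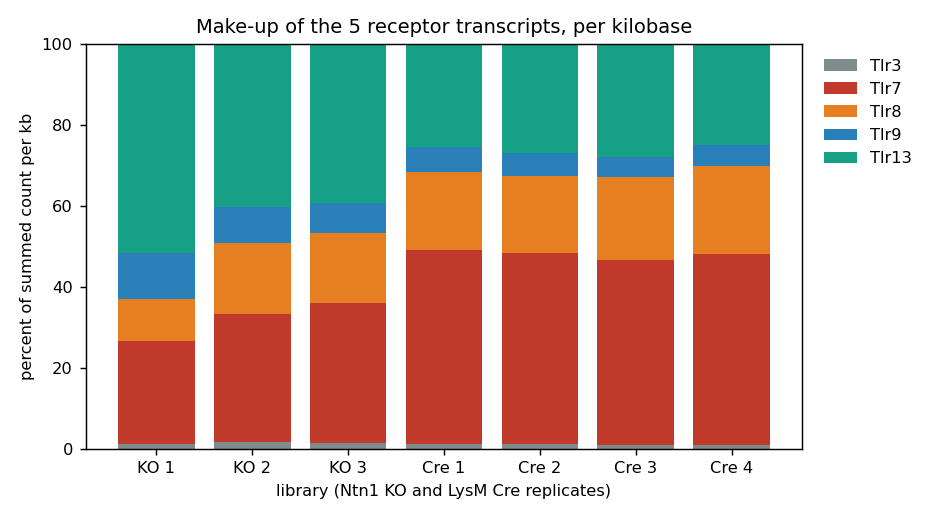
Share of each receptor in the summed level per kilobase of exon of the 5 receptors (percent, stacked to 100), for knockouts 1 to 3 and controls 1 to 4. Tlr13 has the largest share in all 3 knockouts and Tlr7 in all 4 controls.

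Tlr8 and Tlr7 are neighbours near the end of the X chromosome, on the minus strand at chrX:167242696-167264329 and chrX:167304929-167330558 (GRCm38), 40.6 kb apart. Most of the nearest tested genes were called lower too. Of the 5 nearest tested genes on either side, 7 of 10 around Tlr7 and 6 of 10 around Tlr8 were called lower and none higher, each count including the other receptor. Walking outward from Tlr7, a run of 8 consecutive tested genes was called lower, from Tmsb4x to BC022960, over 2163 kb. No tested gene lies between the end of Prps2 at chrX:167382749 and the start of Msl3 at chrX:168654117, so much of that span was not observed. This run was marked out after the values were seen. Each gene is in the run because it was called lower, so its low values are not separate support for the run. All 8 genes had every knockout library below every control library, as did 16.3% of all genes tested. The ratio of the knockout mean to the control mean ran from 0.329 to 0.639, with a median of 0.427.

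Hccs, which attaches heme to cytochrome c, held 458, 470.2 and 484 normalized counts in knockouts, against 976, 993, 947 and 972 in controls. All 3 knockouts were well below all 4 controls, and the libraries within each group lay close together. The means were 471 ± 13.0 in knockouts and 972 ± 19.1 in controls (SD, n = 3 and n = 4), a ratio of 0.484. Msl3, part of a histone acetyltransferase complex, averaged 559 ± 19.3 in knockouts and 1112 ± 55.5 in controls, a ratio of 0.502.

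Prps2, a nucleotide synthesis enzyme and the nearest tested gene beyond Tlr7, averaged 526 ± 34.2 in knockouts and 921 ± 63.7 in controls, a ratio of 0.571. Arhgap6 averaged 20.7 ± 0.438 in knockouts and 60.8 ± 1.96 in controls, a ratio of 0.341. Arhgap6 and Hccs overlap on opposite strands, and no source used here says whether counting used strand, so shared reads cannot be assigned to either with certainty. Tmsb4x, which encodes the actin-binding thymosin beta 4 and is the nearest tested gene on the Tlr8 side, averaged 41444 ± 1671 in knockouts and 64868 ± 6565 in controls, a ratio of 0.639. The low gene BC022960 had a ratio of 0.365.

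Just outside the run, Gm15232 beyond Tmsb4x averaged 41.8 ± 9.68 in knockouts and 53.6 ± 16.1 in controls (limma adjusted p = 0.388). Mid1 beyond BC022960 averaged 36.9 ± 6.96 in knockouts and 41.2 ± 10.6 in controls (limma adjusted p = 0.744). Gm8817, beyond Gm15232, had every knockout below every control, with a ratio of 0.611 (limma adjusted p = 0.158). G530011O06Rik, beyond Mid1, averaged 13.9 in knockouts and 9.67 in controls (limma adjusted p = 0.586). These flanking genes are scarce, so where the lower stretch ends is not settled by their lack of a call. Further out on the Tmsb4x side, Tceanc averaged 125 in knockouts and 95.2 in controls (limma adjusted p = 0.285). Rab9, beyond Tceanc, averaged 363 in knockouts and 426 in controls (limma adjusted p = 0.0555). Over the rest of the X chromosome 9.76% of 379 tested genes were called lower, and their median log2 fold change was 0.02. No other run of called-lower genes among the 12945 tested genes with a position was as long, the next holding 6 genes. Between 6 and 8 of the run's genes were called lower under every alternative, with fewer tested in 3 of them. DNA copy number was not measured, so its part in the lower Tlr7 and Tlr8 levels was not tested.

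Around the other members fewer neighbours were called lower. Tlr9, Tlr13, Unc93b1 and Cnpy3 were not called lower themselves, so no run of called-lower genes could include them. Of 10 neighbours each, 1 rose and 1 fell around Tlr3, 1 rose and 1 fell around Tlr9, 2 rose and 3 fell around Tlr13, 2 rose and 2 fell around Unc93b1 and none was called around Cnpy3. Tlr13 lies at chrX:106143204-106160493, far from Tlr7, between Atp7a, a copper transporter (log2 fold change -0.62, SE 0.10, limma adjusted p = 0.00376), and Pgk1, a glycolytic kinase (log2 fold change -0.21, SE 0.14, limma adjusted p = 0.32). Tlr3 lies at chr8:45395665-45411080 between Fam149a and Ufsp2, Tlr9 at chr9:106222598-106226883 between Twf2 and Alas1, Unc93b1 at chr19:3935186-3949340 between Aldh3b1 and Ndufv1, and Cnpy3 at chr17:46735705-46752214 between Pex6 and the clone 2310039H08Rik. None of these 8 neighbours passed the test.

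**Figure D4:**
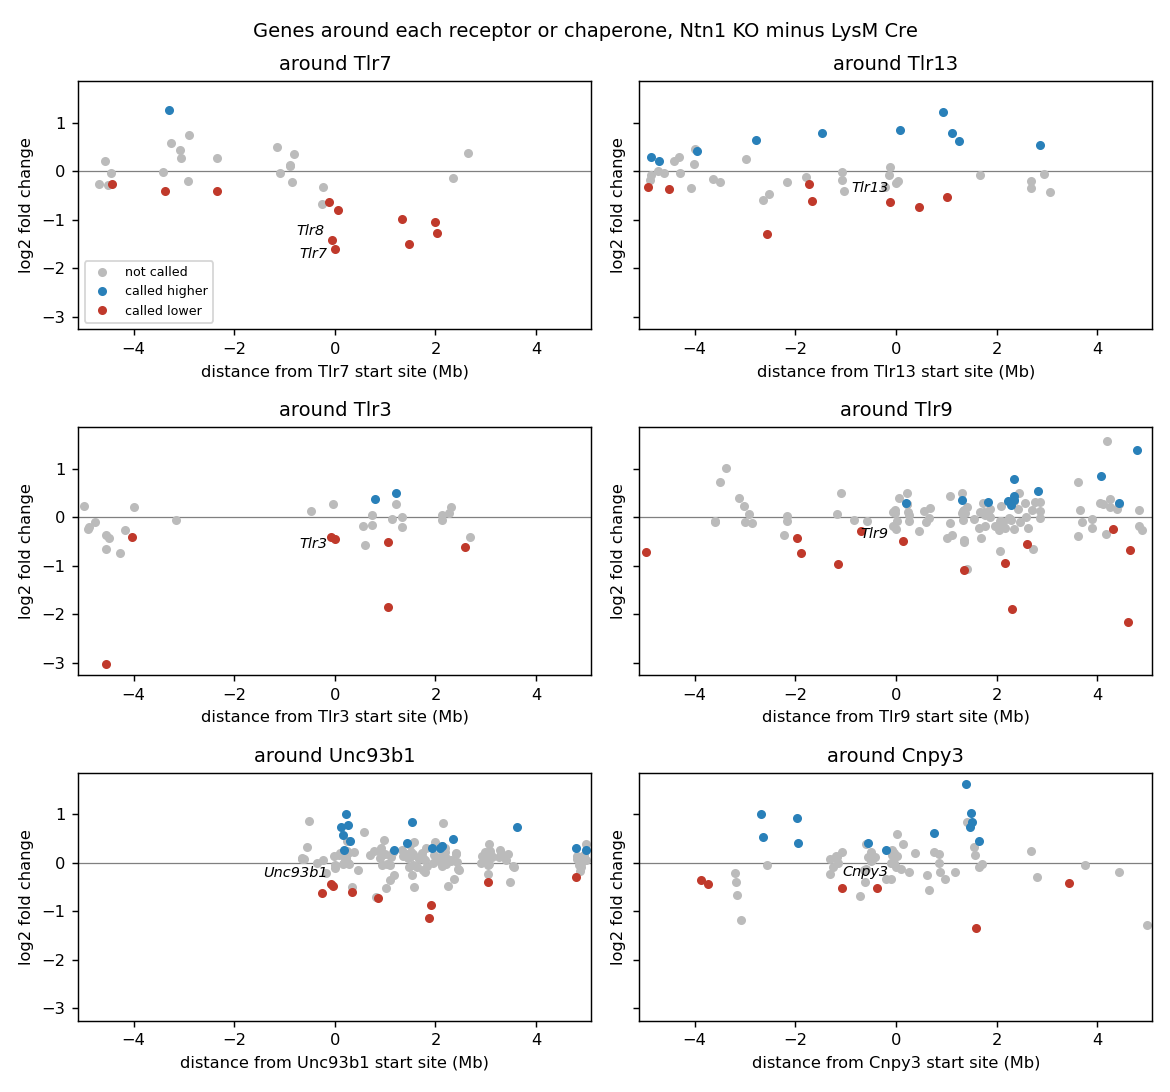
Log2 fold change (knockouts minus controls) of tested genes against the distance of their start site from that of a receptor or chaperone, in megabases; red genes were called lower, blue higher and grey neither. The 8 genes of the run from Tmsb4x to BC022960 are red from just left of Tlr7 to its right, with no other tested gene between them. A wide gap between Prps2 and Msl3 holds no tested gene. Calls around the other members are scattered.

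Genes listed for cutting the receptors or digesting nucleic acids in endosomes were lower in part. Of 13 genes listed as endosomal proteases and nucleases, 7 fell and none rose at a limma adjusted p under 0.05. Their median log2 fold change was -0.46, against 0.01 over all genes tested. Over all genes tested 11.3% fell and 10.4% rose, and these shares apply to the counts of the later lists too. All lists were chosen with earlier results of these data known, so the counts are descriptions. Lgmn, the asparagine endopeptidase that trims Tlr7 and Tlr9, held 2332, 1512 and 1669 normalized counts in knockouts, against 3590.2, 3527, 4841 and 4459 in controls (log2 fold change -1.17, SE 0.17, adjusted p = 0.00253). Every knockout library was below every control library, with knockout 1 the highest of the knockouts. Ctsh, cathepsin H, averaged 4222 ± 357 in knockouts and 7181 ± 638 in controls (log2 fold change -0.77, SE 0.09, adjusted p = 0.00148). Ctsb, Ctsl, Ctss, Dnase2a and Ifi30 also fell, though Ifi30 encodes a lysosomal thiol reductase, neither a protease nor a nuclease. Ctsk, Pld3, Pld4, the secreted nuclease Dnase1l3, Rnaset2a and Rnaset2b did not pass, and the last pair are near-identical copies whose counts are uncertain.

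Of 14 genes listed for folding, trafficking and transport, 3 fell and 1 rose by the same test, and the median log2 fold change was -0.01. Rab7b, a small GTPase of the route from endosomes to lysosomes, averaged 388 ± 84.9 in knockouts and 813 ± 92.9 in controls (log2 fold change -1.08, SE 0.15, adjusted p = 0.00215). Slc29a3, a lysosomal nucleoside transporter, averaged 899.6 ± 160.1 in knockouts and 1494 ± 156 in controls (log2 fold change -0.74, SE 0.13, adjusted p = 0.00551). Ap3d1, a subunit of the AP-3 sorting adaptor, also fell (log2 fold change -0.23, SE 0.07, adjusted p = 0.0493, called in 6 of 19 alternatives). The listed gene 5430427O19Rik rose (log2 fold change 0.55, SE 0.12, adjusted p = 0.0129). No source used here gives its function, so its rise is not read as that of a trafficking gene. Ap3d1, 5430427O19Rik and Hsp90b1 were chosen for naming after their values were seen. Hsp90b1, which encodes gp96, the folding partner of Cnpy3, did not pass (log2 fold change -0.09, SE 0.13, adjusted p = 0.657).

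Of 20 adaptors, kinases and transcription factors, 2 rose and 1 fell, with a median log2 fold change of -0.01. Myd88, the adaptor of every receptor here but Tlr3, averaged 2169 ± 310 in knockouts and 1608 ± 87.9 in controls (log2 fold change 0.42, SE 0.10, adjusted p = 0.0168). Tab2, which links Traf6 to the kinase Tak1, rose (log2 fold change 0.36, SE 0.08, adjusted p = 0.0125), and Traf6, a ubiquitin ligase, fell (log2 fold change -0.25, SE 0.07, adjusted p = 0.0290). Ticam1, the adaptor of Tlr3, did not pass (log2 fold change 0.10, SE 0.10, adjusted p = 0.521). Irf7, an interferon regulatory factor, did not pass either and held 5422, 3356 and 3035 normalized counts in knockouts, against 3242, 3557, 2832 and 3466 in controls. It was highest in knockout 1, as Tlr9 and Tlr13 were. Ticam1 and Irf7 were chosen for naming after their values were seen. The number that fell was 0 without control 2, control 4, knockout 2 or knockout 3, and 3 without control 3. With a single library left out, the call of Traf6 held only without control 3.

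Of 9 genes for cell-surface Toll-like receptors and their partners, 2 fell and none rose, with a median log2 fold change of -0.24. These were Cd180, a receptor-like protein related to Tlr4 (log2 fold change -0.94, SE 0.16, adjusted p = 0.00509), and Tlr1, a partner of Tlr2 (log2 fold change -0.40, SE 0.11, adjusted p = 0.0371). Tlr4, the LPS receptor, averaged 1722 ± 10.1 in knockouts and 1832 ± 96.8 in controls and did not pass (log2 fold change -0.09, SE 0.06, adjusted p = 0.346). Tlr2 (log2 fold change -0.24, SE 0.14, adjusted p = 0.269), Tlr6 (log2 fold change -0.26, SE 0.14, adjusted p = 0.220) and Tlr5 (log2 fold change 0.25, SE 0.30, adjusted p = 0.594) did not pass. Of 12 cytosolic nucleic acid sensors 2 rose and none fell, with a median of 0.21. They were Tmem173, which encodes STING (log2 fold change 0.54, SE 0.10, adjusted p = 0.00741), and Dhx58, a regulator of RNA helicase sensors (log2 fold change 0.36, SE 0.09, adjusted p = 0.0264). Of the surface genes 1 fell without control 2, control 3, control 4 or knockout 2, and 3 without knockout 1. Of the cytosolic sensors 1 rose without control 1, control 4 or knockout 2, and 1 fell without control 3. The call of Tlr1 was lost without control 2, control 3, control 4 or knockout 2, and that of Dhx58 without control 1, control 4, knockout 1 or knockout 2. Whether any of these lists differs from the endosomal receptors was not tested.

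**Figure D5:**
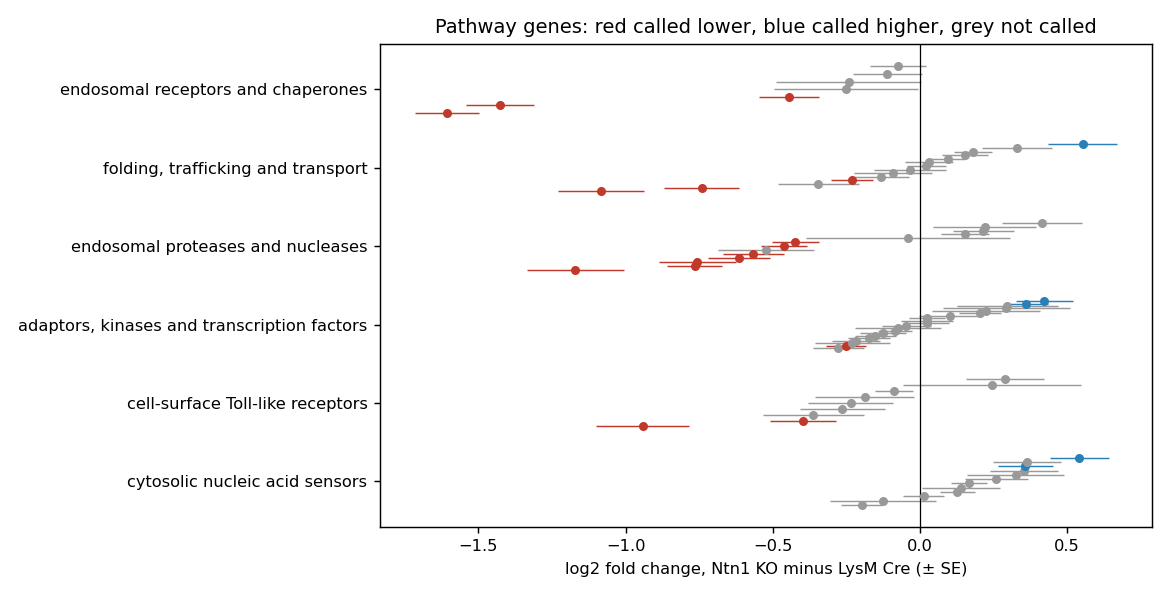
Log2 fold change (knockouts minus controls, ± SE) of each gene in the 7-member set and in the 5 pathway lists; red genes were called lower, blue higher and grey neither. Tlr7 and Tlr8 have the largest falls shown, and 7 of 13 genes listed as endosomal proteases and nucleases are red.

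Markers of cell types that can carry these receptors were set beside the members, since in bulk RNA fewer cells of a type and less RNA per cell cannot be told apart. Beside the marker counts, 11.3% of all genes tested fell and 10.4% rose. Of 12 markers of monocytes and recruited macrophages, 8 fell and 1 rose, none was at 0, and their sum was 32384 to 43556 normalized counts in knockouts and 48000.3 to 64579 in controls. Ms4a7, a macrophage membrane protein (log2 fold change -1.54, SE 0.22, adjusted p = 0.00287), fell, while Ccr2, the receptor that draws monocytes from blood, rose (log2 fold change 0.48, SE 0.14, adjusted p = 0.0423). The number that fell was 5 without control 1 and 4 without control 4, without knockout 2 or without controls 1 and 4, and the call of Ccr2 held with a library left out only when that was control 4. No alveolar macrophage marker passed among 12, though 1 rose without control 4 or without knockout 1, none was at 0, and their sum was 91605 to 138277 normalized counts in knockouts and 73034 to 108850 in controls. Chil3 made up most of that sum, averaging 79174 in knockouts and 66823 in controls.

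Plasmacytoid dendritic cells, rich in Tlr7 and Tlr9, had 10 markers listed, of which Cox6a2 was below the minimum for testing and none was at 0. Of 9 tested, Runx2 rose (log2 fold change 0.42, SE 0.11, adjusted p = 0.0318) and none fell, and the sum was 3121 to 3192 normalized counts in knockouts and 2274 to 2942 in controls. Most of that sum came from Bst2, averaging 1210 in knockouts and 1138 in controls, and Runx2, averaging 965 and 726. Of 10 markers of cDC1, dendritic cells rich in Tlr3, Wdfy4 fell (log2 fold change -0.30, SE 0.09, adjusted p = 0.0435) and none rose, with a sum of 4276 to 4954 normalized counts in knockouts and 4379 to 5362 in controls. Most of that sum came from Naaa, averaging 2586 in knockouts and 2630 in controls, and Wdfy4, averaging 1496 and 1831. Xcr1 averaged only 37.4 in knockouts and 49.6 in controls. Such sums therefore mostly follow a few abundant genes. Of 9 B cell markers in the table, 6 passed the minimum, and none was at 0 in every library. Ighm, the immunoglobulin M heavy chain, rose (log2 fold change 0.68, SE 0.17, adjusted p = 0.0219) and Blk, a B cell kinase, fell (log2 fold change -0.79, SE 0.24, adjusted p = 0.0437), and the sum was 634 to 966 normalized counts in knockouts and 518 to 762 in controls. Ighm made up most of that sum, averaging 629 in knockouts and 388 in controls. The plasmacytoid dendritic cell markers that rose were 3 with DESeq2, 2 with edgeR, 2 without controls 1 and 4 and 0 without controls 2 and 3. The call of Runx2 was lost without control 1, control 3, knockout 2 or knockout 3, and that of Ighm without control 2 or knockout 2. With a single library left out, the call of Wdfy4 held only without knockout 2 and that of Blk only without control 3.

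Of 10 natural killer cell markers, all 10 rose, Nkg7 (log2 fold change 1.56, SE 0.07, adjusted p = 3.54e-05) and Il2rb (log2 fold change 1.46, SE 0.11, adjusted p = 3.16e-04) among them, and their sum was 50062 to 56109 normalized counts in knockouts and 10393 to 17167 in controls. The part of these cell types in the levels of Tlr7, Tlr8 and Tlr3 was not tested.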

How the data were processed

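RNA sequencing of lavage cells was analysed in 3 knockout and 4 control libraries. The submitters' processing notes list the GRCm38/mm10 build, the aligner STAR 2.5.3a, the trimmer cutadapt 1.15, the counter HTSeq, and DESeq2, with no settings. The values the authors deposited are a signal, read counts divided by a size factor, and dividing by the smallest step gave whole reads for 100% of values within 0.01. The authors' log2 fold changes were deposited in the same table and are quoted only where named; the test scores and p-values deposited with them were not used.

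Limma 3.58.1 in R 4.3.3 was fitted to log2(normalized count + 1) of 12963 genes with a mean of at least 10, with a mean-variance trend and Benjamini-Hochberg adjustment, and an adjusted p under 0.05 counted as a call. The fit was also run on simulated counts, drawn independently for each gene and library. They lacked the shared differences between libraries seen here in Lyz2 and the neutrophil markers. That run therefore does not show how the fit handles such differences. Alternatives used DESeq2 1.42.0 and edgeR 4.0.16 fitted to recovered reads, other scalings, pseudocounts and minimums, replicate blocks and libraries left out. On those reads edgeR called 1365 genes higher and 1497 lower, and DESeq2 called 1414 and 1611. Positions and lengths are from GENCODE M21 on GRCm38. The count of 3 reads that a count of 0 allows was 2.65 to 3.76 normalized counts per library; it covers counting error only.

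The members and all gene lists were chosen with earlier results of these data known. Named list genes are up to 2 per direction with the smallest p among those called, all surface receptors whose symbol starts with Tlr, the nearest neighbours of each member and the 3 genes with the most similar profile; clone names were left out, and exceptions are named as such. Some marker genes that this rule names are not reported here.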

Additional observations from a re-analysis of the deposited data

Results flagged for a closer look

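A sample far from the others was looked for in the 4 control libraries for 33 genes, and chance flags about 1 in 20 such groups. Tlr13 stood at 4704 normalized counts in control 3, where the other controls held 3398 to 3469.8. Hdc, a neutrophil and mast cell gene, stood at 652 normalized counts in control 3, where the other controls held 1008 to 1058.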

How the results depend on the processing

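Tlr7 and Tlr8 were called lower under all 19 alternatives, and the loss of Tlr3 and gain of Tlr9 and Tlr13 are given above. The alternatives reuse the same libraries, and the members were picked with this contrast known, so these calls only describe them. Some alternatives cannot differ much. The log2 fold change of Tlr7 was -1.61 in the main fit, with a minimum mean of 50 and with no minimum. For Tlr7 the title block gave the same estimate as leaving out control 4, and the description block the same as leaving out control 1. Over all genes 1352 were called higher and 1461 lower. Without controls 1 and 4, which differ from controls 2 and 3 in Lyz2, these counts were 624 and 567, and without controls 2 and 3 they were 622 and 620. Deviations of same-numbered libraries correlated at -0.23, -0.03 and -0.19 by title and at -0.08, -0.29 and 0.08 by description. They gave no sign that the replicate numbers pair the libraries, but so few correlations cannot exclude a pairing. With the replicate block by title number the counts over all genes were 424 higher and 382 lower, and by description number 591 and 605. Leaving out each library in turn gave 695 to 1172 higher and 820 to 1303 lower, and 2 to 5 members called lower.

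Of the folding, trafficking and transport genes, 0 rose without either control pair and with the title block, and 1 fell without controls 1 and 4. Ap3d1 was not called under TMM or library size scaling, with no minimum, without either control pair, with either block, or when any single library other than control 3 was left out. Of the proteases and nucleases, 3 fell with the description block and 1 rose under library size scaling. Of the adaptors, kinases and transcription factors, 2 fell with DESeq2 and with library size scaling, 0 rose and 0 fell without controls 1 and 4 and with the title block, 0 rose without controls 2 and 3, and 1 rose and 0 fell with the description block. With single libraries left out 0 to 3 of them fell. Of the cell-surface genes 1 fell without either control pair and with the title block, and 1 to 3 with single libraries left out. Of the cytosolic sensors 4 rose with DESeq2 and with library size scaling, 1 fell with DESeq2, and 1 rose without either control pair and with either block. With single libraries left out 1 to 2 of them rose and 0 to 1 fell. Of the monocyte and recruited macrophage markers 3 fell with the title block and 4 with the description block, and of the neutrophil markers 2 rose with the title block. Of the plasmacytoid dendritic cell markers 2 rose with a pseudocount of 5 and 0 with the description block. The log2 fold change of Tlr5 ran from -0.0040 to 0.43 with single libraries left out. The causes were not tested. Low genes such as Tlr5 and BC022960 are limited by depth.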
